A study of Homo sapiens with 15 samples.

Results

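The muscleblind family of splicing regulators, MBNL1, MBNL2 and MBNL3, was followed through IL-13 treatment of A549 cells. These are 3 of the 11963 genes that the arrays measured with at least 1 probe set of a single symbol. The members were chosen by gene symbol, and 8 probe sets carry the symbols: 4 for MBNL1, 3 for MBNL2 and 1 for MBNL3. A549 is a human lung adenocarcinoma line of epithelial origin, which the labels call bronchial. Total RNA was hybridised to 15 Affymetrix human genome arrays, 3 in each of 5 groups: IL-13 for 4 h, IL-13 for 12 h, IL-13 for 24 h, cells titled control at 24 h, and control cells at 0 h with no treatment. The dose of IL-13 is not in the labels. Nor do they say that replicates a, b and c came from different dishes, and a p-value here reflects the scatter of these arrays alone, which may be technical. At 4 h and 12 h the only baseline is the 0 h control, so IL-13 and time in culture cannot be told apart. Values are signal intensities as deposited, on a linear scale. Differences are on the log2(signal + 20) scale, where the added 20 understates changes of dim probe sets, after quantile normalization. They are followed by their standard error, with 3 arrays in each group.

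The family was chosen with the difference of MBNL2 between IL-13 at 24 h and the 24 h control already known. Every value that involves a 24 h group is therefore given for the family as a description, with no test. Tests of the family are limited to comparisons among the 9 arrays at 0 h, 4 h and 12 h. The 24 h arrays still entered the normalization, the brightness filter and the estimate of spread behind these tests. With the compared groups alone, the 12 h difference from 0 h of MBNL2 on 203640_at was 0.73 (limma adjusted p = 0.0206).

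Muscleblind proteins are zinc finger proteins that bind short pyrimidine-GC-pyrimidine elements in RNA. Bound inside or upstream of an alternative exon they tend to promote its skipping, and bound downstream they tend to promote its inclusion. They are best known from myotonic dystrophy, where expanded CUG or CCUG repeats in RNA sequester them and exons of muscle, heart and brain transcripts revert to fetal splicing patterns. MBNL1 is the broadly expressed member and the major one in muscle, MBNL2 is prominent in brain, and MBNL3 is the member tied to placenta and to muscle cell precursors. CELF proteins act against them on many shared exons. IL-13 is a type 2 cytokine of allergic airways that signals through IL-4 receptor alpha and IL-13 receptor alpha 1 to the transcription factor STAT6.

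The arrays had median signals between 56.75 and 72.45, the highest 3 being the 24 h controls, and within-group correlations lay between 0.971 and 0.983. The epithelial keratin KRT18 had a median signal of 11190 and the aldo-keto reductase AKR1B10, abundant in A549, of 9327. EPCAM was dim, with a median signal of 52.9. Of 9 measured markers of leukocytes, endothelium, muscle and glia, 2 (CD3E and PECAM1) were above the level needed for testing, at medians of 68.37 and 67.99. The summed signal of the 9 markers ran from 231.3 to 359.2 at 4 h, 244 to 355.3 at 12 h and 208.8 to 295.3 at 24 h of IL-13, against 239.3 to 323.9 in the 24 h control and 234.8 to 300.1 at 0 h, so the groups overlapped. The defining leukocyte marker PTPRC had a median signal of 11.87.

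MBNL2 rose after 12 h of IL-13 on 1 of its 3 probe sets, 203640_at, and stood highest on it after 24 h. The signals of 203640_at were 82.77, 109.4 and 93.45 at 0 h and 134.3, 131 and 112.6 after 4 h of IL-13. They were 157.3, 196.6 and 162.5 after 12 h, and 312, 329.9 and 380 after 24 h of IL-13. Each IL-13 time lay wholly above the time before it. In the 24 h control the signals were 136.8, 165.4 and 101.1, a range that overlapped those at 4 h and 12 h of IL-13 and lay wholly below that at 24 h of IL-13. The group means, lowest to highest, were 95.21 ± 13.4 at 0 h, 125.9 ± 11.71 at 4 h of IL-13, 134.5 ± 32.19 in the 24 h control, 172.1 ± 21.35 at 12 h of IL-13 and 340.6 ± 35.24 at 24 h of IL-13 (SD, n = 3 arrays each). In RNA of whole cultures, more cells expressing a gene and more RNA per cell cannot be told apart. In the order of the means the 24 h control was not separate from either neighbour, since its arrays overlapped those at 4 h and those at 12 h of IL-13.

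**Figure D1:**
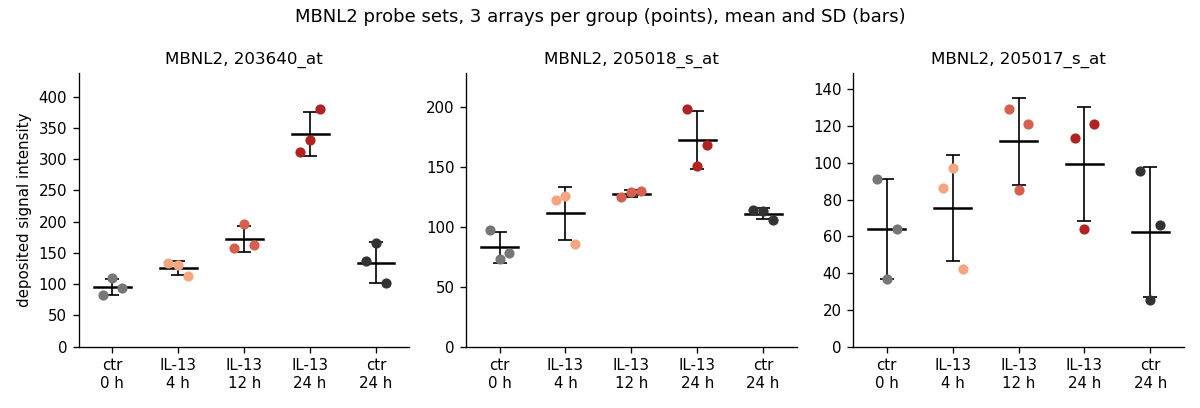
Deposited signal intensity (linear axis) of the 3 MBNL2 probe sets in each of the 5 groups, with points for arrays and bars for the mean and SD. On 203640_at the 3 arrays at 24 h of IL-13 lie between 312 and 380, above all 12 other arrays, while on 205017_s_at every group overlaps its neighbours.

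After 12 h of IL-13 the signal of 203640_at averaged 1.81 times that at 0 h, a rise of 0.72 ± 0.16 on the log2 scale (limma, Benjamini-Hochberg adjusted p = 0.0153 over 11107 probe sets). It was the 42nd highest difference of those probe sets. Of the 6 muscleblind probe sets bright enough to test, this was the 1 called, beside 3.99% of all probe sets tested in that comparison (1.58% higher and 2.41% lower). The call was lost without array a (adjusted p = 0.0751) or array c (0.0528) at 0 h and without array b at 12 h (0.0683), with differences of 0.63 to 0.82 over all 6 arrays left out in turn. The ratio of 3' to 5' beta-actin control signal, which reports on RNA quality, was 1.037 to 1.134 at 12 h of IL-13 and 0.9303 to 1.058 at 0 h, and its part in the difference was not tested.

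After 4 h of IL-13 the same probe set stood 0.33 ± 0.16 above 0 h and did not pass (limma adjusted p = 0.494, unadjusted p = 0.0529), although the 3 arrays of each group did not overlap. No muscleblind probe set was called at 4 h by limma, beside 0.972% of all probe sets tested. Of the 6, 1 had an unadjusted p under 0.05, beside 10.3% of all. This was the MBNL2 probe set 205018_s_at (limma unadjusted p = 0.0329), whose groups overlapped. Between 4 h and 12 h of IL-13, 203640_at stood 0.39 ± 0.16 higher at 12 h (limma adjusted p = 0.385, unadjusted p = 0.0251). In that comparison limma called 0 of 11107 probe sets (0%), with 1151 at an unadjusted p under 0.05, so the muscleblind count of 0 is that of the whole array.

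The second MBNL2 probe set, 205018_s_at, was also highest at 24 h of IL-13 but was not called at 4 h or 12 h. Its signals were 97.88, 73.42 and 78.08 at 0 h, 122.5, 125.8 and 86.01 after 4 h, 124.7, 129.1 and 130.2 after 12 h and 198.7, 151 and 168.4 after 24 h of IL-13, and 114.3, 113.7 and 105.7 in the 24 h control. All arrays at 24 h of IL-13 were above all others. The 24 h control, without IL-13, also lay wholly above 0 h in deposited signal, although these groups overlapped after quantile normalization. Its mean was 111.2, beside 111.4 at 4 h of IL-13 and 83.13 at 0 h. At 12 h against 0 h the groups did not overlap and the difference was 0.50 ± 0.14, just short of the threshold (limma adjusted p = 0.0533), and at 4 h it was 0.32 ± 0.14 (adjusted p = 0.424). With the values scaled as deposited the 12 h difference passed (0.53, adjusted p = 0.0446).

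The third, 205017_s_at, scattered most between replicates. Its signals were 91.04, 36.5 and 63.9 at 0 h, 86.08, 97.23 and 42.46 after 4 h, 129.3, 84.98 and 121.1 after 12 h and 113.3, 63.87 and 120.9 after 24 h of IL-13, and 95.74, 25.24 and 66.1 in the 24 h control. Neighbouring groups overlapped throughout. Its 12 h difference from 0 h was 0.65 ± 0.32 (limma adjusted p = 0.313), close in size to that of 203640_at with an error that is larger. The coefficient of variation within groups ran from 21.1% to 56.77% on this probe set and from 9.301% to 23.93% on 203640_at. Which transcripts or ends of MBNL2 each probe set reads was not analysed here.

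At 24 h, where the control is matched in time, MBNL2 stood higher with IL-13 on all 3 probe sets, by 1.30 ± 0.16 on 203640_at, 0.64 ± 0.14 on 205018_s_at and 0.75 ± 0.32 on 205017_s_at, given here as a description. The value of 205017_s_at was 0.39 without array b of the control and 1.06 without array a. The mean signals were 340.6 and 134.5 on 203640_at, 172.7 and 111.2 on 205018_s_at, and 99.33 and 62.36 on 205017_s_at, IL-13 before control. The first of these was the 8th highest difference of 11107 probe sets. Groups did not overlap on 2 of the 6 muscleblind probe sets, both of MBNL2, beside 25.6% of all probe sets. The beta-actin 3'/5' ratio ran from 1.087 to 1.228 with IL-13 and from 1.112 to 1.243 in the control, so the groups overlapped in it. Without IL-13, 203640_at stood 0.30 ± 0.16 higher at 24 h than at 0 h with overlapping arrays, 205018_s_at 0.23 ± 0.14 higher and 205017_s_at 0.25 ± 0.32 lower (log2 difference -0.25). Array b of the 24 h control weighed on these values: without it 203640_at stood at 0.12 and 205017_s_at at 0.12, so that 205017_s_at changed sign, and without array c 203640_at stood at 0.49. These comparisons share arrays with each other, so their values are set side by side and not combined. Between 12 h and 24 h of IL-13, 203640_at stood 0.88 ± 0.16 and 205018_s_at 0.37 ± 0.14 higher at 24 h, while 205017_s_at stood at -0.15 ± 0.32. MBNL1 also stood higher at 24 h than at 12 h of IL-13. On 201153_s_at the difference was 0.33 ± 0.12 and the groups did not overlap. It was 0.20 ± 0.16 on 201151_s_at and 0.12 ± 0.13 on 201152_s_at, with overlapping arrays.

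**Figure D2:**
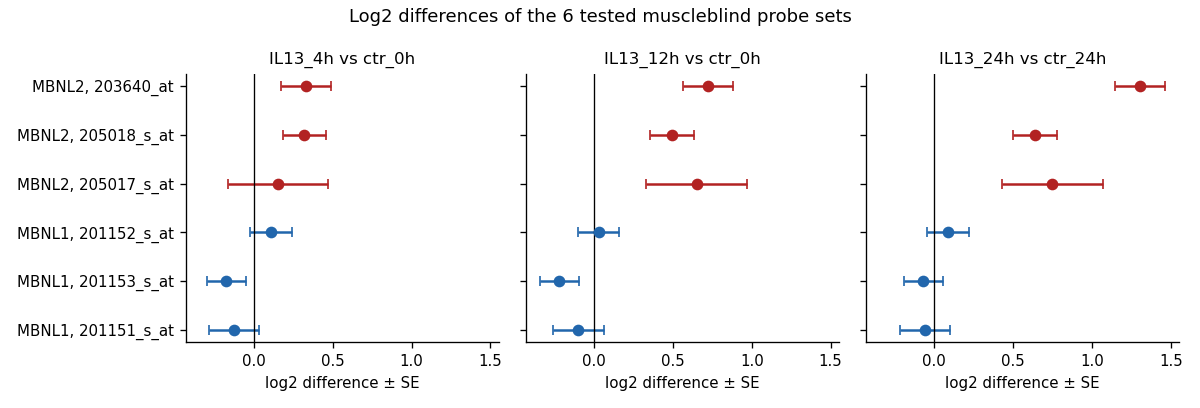
Log2 differences (horizontal axis, log2 of signal + 20) with their standard errors for the 6 tested muscleblind probe sets in 3 comparisons, MBNL2 in red and MBNL1 in blue. MBNL2 on 203640_at stands at 0.33, 0.72 and 1.30, and no MBNL1 probe set stands beyond 0.22 in either direction.

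The table of RefSeq promoters on GRCh38.p14 lists 2 start windows for MBNL2, each from 250 bases before to 50 after a gene start. They are shown because MBNL2 is the member whose level rose, and the arrays do not tell which start was used.
MBNL2, chr13:97141584-97141883 (+ strand): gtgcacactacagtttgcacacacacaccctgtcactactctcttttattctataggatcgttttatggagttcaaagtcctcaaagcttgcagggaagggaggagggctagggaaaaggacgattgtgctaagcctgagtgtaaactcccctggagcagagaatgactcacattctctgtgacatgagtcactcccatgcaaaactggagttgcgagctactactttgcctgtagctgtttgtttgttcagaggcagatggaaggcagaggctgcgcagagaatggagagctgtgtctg
MBNL2, chr13:97222083-97222382 (+ strand): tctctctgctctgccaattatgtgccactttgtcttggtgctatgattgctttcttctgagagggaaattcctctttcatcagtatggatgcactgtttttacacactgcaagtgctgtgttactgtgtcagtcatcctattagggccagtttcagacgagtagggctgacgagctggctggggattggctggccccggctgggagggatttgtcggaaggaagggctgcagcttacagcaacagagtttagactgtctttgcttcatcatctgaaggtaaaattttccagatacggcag
The palindromic motif TTC, then 4 bases of any kind, then GAA, the spacing that STAT6 is known to prefer, was searched in them, and since it reads the same on both strands a single scan covers both. It occurred in 0 of the 9 windows of the family (3 of MBNL1, 2 of MBNL2 and 4 of MBNL3), so no base is capitalised, and in 6.44% of all 35116 promoter windows of the same length. The absence says only that these letters are not in these windows.

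MBNL1 was not called at any tested time on any of its 3 tested probe sets. Its probe set 201152_s_at had signals of 521.2, 457.9 and 467.4 at 0 h, 643.1, 456.3 and 458.6 after 4 h and 441, 585.6 and 441.2 after 12 h of IL-13. After 24 h they were 579.8, 497.2 and 537.1 with IL-13, against 509.9, 467 and 462.4 in the control. All neighbouring groups overlapped. The log2 difference from 0 h was 0.11 ± 0.13 at 4 h (limma adjusted p = 0.855) and 0.03 ± 0.13 at 12 h (adjusted p = 0.941), and 24 h of IL-13 stood 0.09 ± 0.13 from its control.

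On 201153_s_at MBNL1 averaged 326 ± 28.66 after 12 h of IL-13 and 388.8 ± 31.23 at 0 h (SD, n = 3 arrays). The groups did not overlap there and IL-13 lay below 0 h, with a difference of -0.22 ± 0.12 that did not pass (limma adjusted p = 0.387). With MBNL2 on 203640_at and 205018_s_at this makes 3 of 6 muscleblind probe sets whose groups did not overlap at 12 h, beside 23.7% of all probe sets, and at 4 h it was 1 of 6 beside 16.5%. At 24 h the same probe set averaged 421.4 ± 28.37 with IL-13 and 431.1 ± 21.68 in the control. On 201151_s_at the means were 135.5 ± 8.775 at 4 h, 139.8 ± 9.935 at 12 h and 164.2 ± 20.48 at 24 h of IL-13, against 153 ± 33.5 at 0 h and 181.2 ± 50.4 in the 24 h control, with overlap between neighbours. Under median scaling, which moved the median difference of all probe sets at 24 h to 0.13, the 24 h differences of MBNL1 were 0.33 on 201152_s_at, 0.14 on 201153_s_at and 0.07 on 201151_s_at. Under quantile normalization 201153_s_at stood at -0.07 ± 0.12 and 201151_s_at at -0.06 ± 0.16, so both changed sign, and 201151_s_at stood at 0.14 without array a of the 24 h control.

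The fourth MBNL1 probe set, 215663_at, was below the level needed for testing, at 1.273 to 34.99 over the 15 arrays. Its SD was 72.71% to 82.34% of the mean over the 5 groups, and neighbouring groups overlapped.

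MBNL3 was below the level needed for testing. Its only probe set, 219814_at, had signals of 19.43, 19.46 and 12.56 at 0 h, 28.87, 10.6 and 10.36 after 4 h, 23.48, 13.6 and 30.85 after 12 h and 3.749, 16.71 and 6.496 after 24 h of IL-13, and 17.81, 32.04 and 27.38 in the 24 h control. At 24 h all 3 arrays with IL-13 lay below all 3 of the control, a description at signals under the pseudocount for much of the range (log2 difference -0.55 ± 0.20 in a fit with no filter). It stood at -0.11 ± 0.20 at 4 h and 0.13 ± 0.20 at 12 h against 0 h in that fit (limma adjusted p = 0.954 and 0.883). Whether this probe set was above background was not analysed here.

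**Figure D3:**
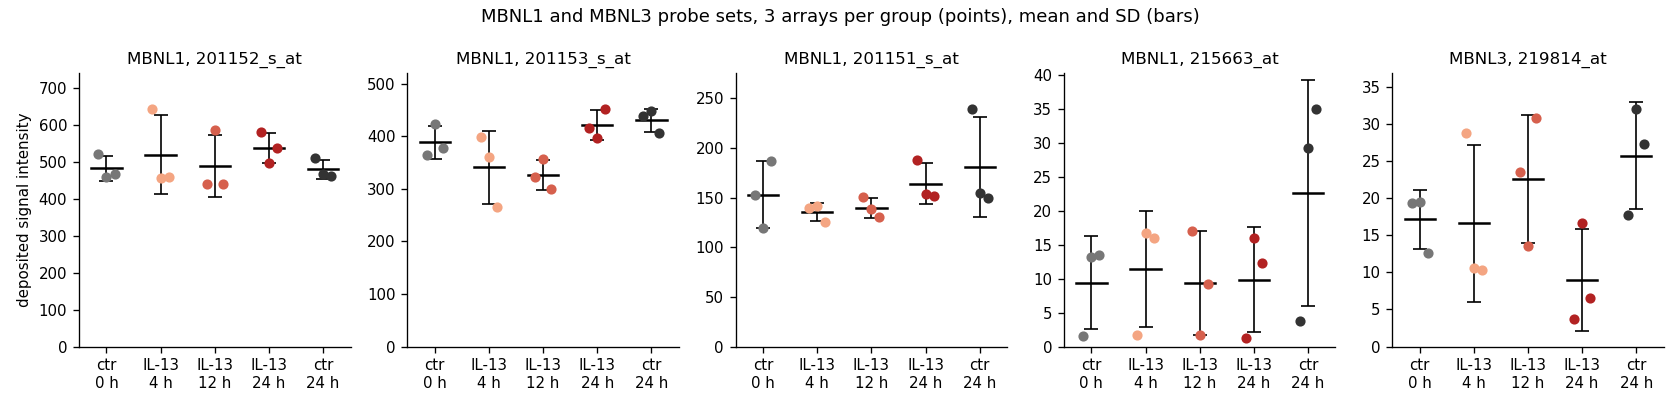
Deposited signal intensity (linear axes that differ between panels) of the 4 MBNL1 probe sets and the MBNL3 probe set in the 5 groups, with points for arrays and bars for the mean and SD. The groups of 201152_s_at overlap throughout, and 215663_at and the MBNL3 probe set 219814_at stay below 35 on all arrays.

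Whether MBNL2 moved apart from MBNL1 was asked within arrays, by taking the log2 value of 203640_at minus that of the MBNL1 set 201152_s_at on each array. The shift in this difference was 0.69 at 12 h against 0 h, where it ran from -1.44 to -1.35 at 12 h and from -2.38 to -1.80 at 0 h (exact permutation test, two-sided, p = 0.1, the smallest that 3 arrays against 3 can give; adjusted p = 0.15 over 3 comparisons). It was 0.22 at 4 h against 0 h with overlapping arrays (exact p = 0.5, adjusted p = 0.5) and 0.47 at 12 h against 4 h of IL-13 without overlap (exact p = 0.1, adjusted p = 0.15). With 3 arrays against 3 this test cannot reach the threshold of 0.05. A level of MBNL2 against MBNL1 cannot be read from it, since different probe sets differ in brightness.

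The genes whose pattern over the 15 arrays lay nearest to that of 203640_at were taken among 6883 other genes tested, by the root mean square of the difference between log2 values centred on each gene's mean. The nearest was CTSL, the lysosomal protease cathepsin L, at 0.273. It was followed by NAMPT, the rate-limiting enzyme of NAD salvage, at 0.294, by MREG (melanoregulin) at 0.296, by IL6ST, the gp130 receptor chain shared by the IL-6 family, at 0.302, and by MMD at 0.311. A flat gene would be at 0.581. The second MBNL2 probe set, 205018_s_at, was at 0.340, with 12 genes nearer, and the third, 205017_s_at, at 0.639, with 4280 genes nearer. The 3 MBNL1 sets lay between 0.561 and 0.592. The mean signal of CTSL was 818.5 at 0 h, 1081 at 4 h, 1614 at 12 h and 2182 at 24 h of IL-13, and 775.5 in the 24 h control. IL6ST averaged 468.1 at 0 h, 460.9 at 4 h, 633.4 at 12 h and 1095 at 24 h of IL-13 and 639.1 in the 24 h control. The 24 h arrays for which MBNL2 was chosen are among the 15, so the measure is a description of these arrays.

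**Figure D4:**
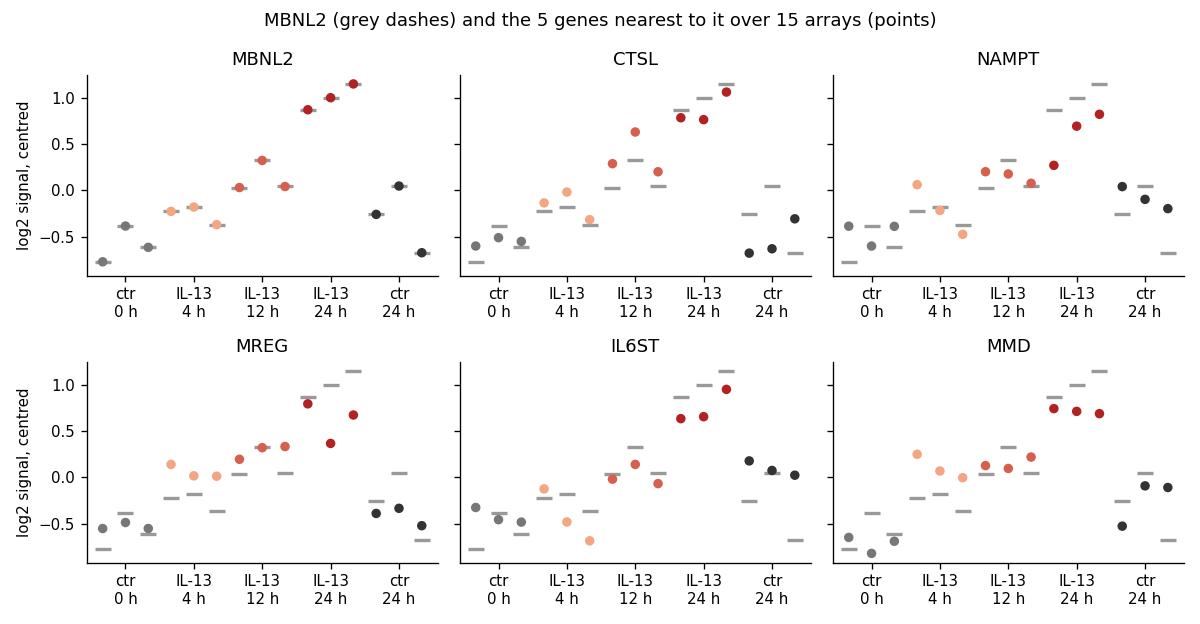
Log2 signal centred on each gene's mean (vertical axis) for each of the 15 arrays, 3 per group side by side, for MBNL2 on 203640_at and the 5 nearest genes. Points are the named gene and grey dashes are MBNL2, and the arrays at 24 h of IL-13 are the highest for MBNL2.

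Other regulators of alternative splicing were read from a list of 68 genes. It was chosen with earlier results of these data known, so its counts are not independent tests. Of the 68 genes, 57 had a probe set of a single symbol and 46 were bright enough to test, each on its brightest probe set. None was called higher in any of 3 comparisons under quantile normalization. At 24 h of IL-13 against the 24 h control limma called 5 of 46 lower, beside 2.97% lower and 3.48% higher of all probe sets (6.45% in all). The list holds the brightest probe set of each gene and is not matched in brightness to all probe sets. The share called at 24 h was 7.13% with 1 probe set per gene and 12.4% above the 75th percentile of brightness. The list's median difference was -0.03, beside -0.0014 for all probe sets. HNRNPH1, an hnRNP that binds G-rich elements at exons, averaged 2267 ± 105.4 with IL-13 and 3002 ± 146.2 in the control (-0.51 ± 0.12, limma adjusted p = 0.0215). ELAVL1, the RNA-stabilising protein HuR, averaged 751.6 ± 70.51 with IL-13 and 908.9 ± 53.15 in the control (-0.39 ± 0.09, adjusted p = 0.0192). KHDRBS1, the signalling-responsive splicing factor Sam68 (-0.37 ± 0.09, adjusted p = 0.0185), the SR-related factor SRRM1 (-0.38 ± 0.10, adjusted p = 0.0287) and HNRNPD (-0.41 ± 0.11, adjusted p = 0.0316) also fell.

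These calls depended on scaling and on single arrays. On the probe set tested all 5 genes stood lower with IL-13 in each of 16 alternatives, which reuse the same arrays. With median scaling their differences shrank to between -0.227 (HNRNPH1) and -0.095 (ELAVL1), beside a median of 0.13 for all probe sets. None of the 5 was called there (limma adjusted p from 0.312 to 0.677). With the values as deposited 1 member of the list rose and 1 fell, and with median scaling 4 rose and 0 fell, so the split of calls turned with scaling. The count was 0 without array c at 24 h of IL-13 and 2 or 3 without any other of the 6 arrays. Other probe sets of these genes did not all stand lower. Those of HNRNPH1 ran from -0.37 to 0.40 and that of ELAVL1 stood at 0.04. Those of KHDRBS1 ran from -0.55 to 0.04 and those of HNRNPD from -0.19 to 0.07, and that of SRRM1 stood at -0.02. The highest member was SRSF10 at 0.36 (limma adjusted p = 0.094), named after its value was seen, below the 1.30 for which MBNL2 was chosen.

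CELF1, the best-studied antagonist of muscleblind proteins, averaged 543.8 ± 71.99 with IL-13 at 24 h and 520.7 ± 83.15 in the control, and its log2 difference of -0.01 ± 0.14 had no set sign, being 0.06 as deposited and 0.24 with median scaling (limma adjusted p = 0.985 under quantile normalization). RBFOX2, which shares many exons with the muscleblind proteins, stood at 0.02 ± 0.11 (adjusted p = 0.934). The repressor PTBP1, on a probe set of a kind that can cross-hybridize, stood at -0.21 ± 0.10 (adjusted p = 0.226) and the STAR protein QKI at -0.18 ± 0.11 (adjusted p = 0.339), and with median scaling these were 0.04 and 0.05. Other probe sets of these genes went both ways at 24 h. The 3 others of CELF1 ran from -0.48 to 0.29, the 3 others of RBFOX2 from -0.14 to 0.18 and the 5 others of QKI from -0.35 to 0.12. CELF2 and the epithelial regulator ESRP1 were too dim to test, with median signals of 42.11 and 10.47.

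At 12 h of IL-13 against 0 h 2 of 46 splicing regulators were called, both lower, beside 3.99% of all probe sets, and the list's median was 0.0045 beside 0.01 for all probe sets. RBM10 averaged 98.61 ± 22.37 after 12 h and 225 ± 26.98 at 0 h (-1.05 ± 0.20, limma adjusted p = 0.00492), with its other pair of probe sets at -0.80 and -0.40. SRRM2, a large spliceosome-associated protein, averaged 167.9 ± 27.82 after 12 h and 289.1 ± 50.35 at 0 h (-0.69 ± 0.15, adjusted p = 0.0118), with its other probe sets from -0.25 to 0.35, and it was not called in 3 of 16 alternatives. Neither was called at 24 h against the time-matched control. There RBM10 averaged 171.5 ± 53.95 with IL-13 and 168.3 ± 15.18 in the control (0.05 ± 0.20, limma adjusted p = 0.912). SRRM2 stood at -0.36 ± 0.15 (adjusted p = 0.145). At 4 h limma called 0 of 46, with 8 at an unadjusted p under 0.05, beside 10.3% of all probe sets, and SRRM2 stood at -0.60 ± 0.15 (adjusted p = 0.0582).

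**Figure D5:**
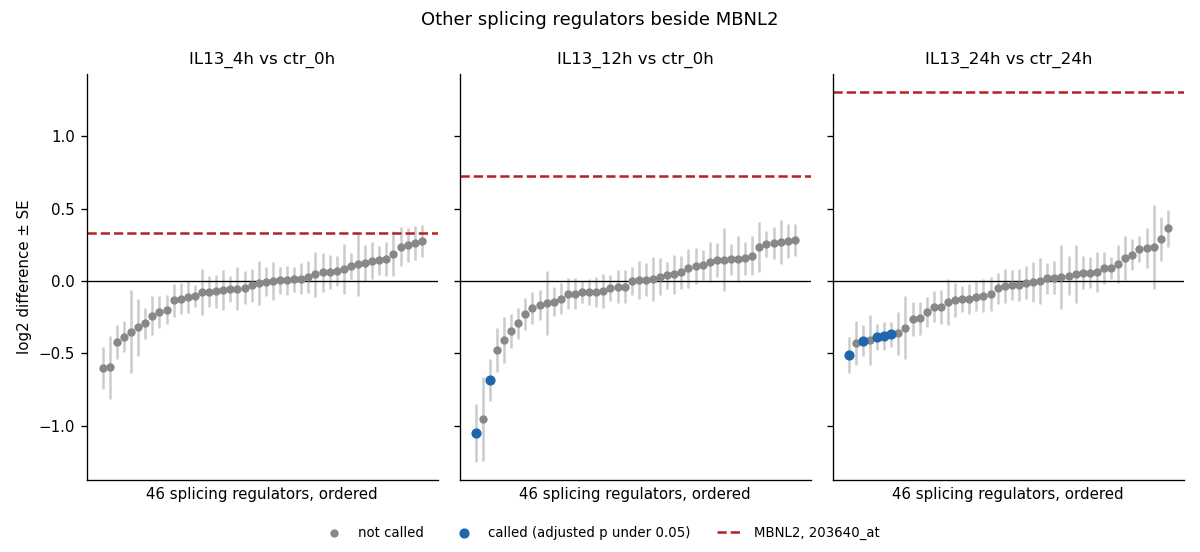
Log2 differences with standard errors of the 46 tested splicing regulators, ordered within each of 3 comparisons, with calls in blue and MBNL2 on 203640_at as a dashed red line (0.33, 0.72 and 1.30). MBNL2 was chosen for its 24 h value, so its place above the regulators was fixed by that choice there and not tested at 4 h or 12 h; all calls lie below 0 under quantile normalization.

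Transcripts whose alternative exons muscleblind proteins are known to regulate were read at the gene level only, since these arrays probe the 3' end and do not read exon inclusion. Of 23 such genes 19 had a probe set of a single symbol and 6 were bright enough to test. This list was also chosen with earlier results of these data known. The insulin receptor INSR, whose alternative exon is a classical target, had a median signal of 23.43 and was not tested. At 24 h limma called 1 of 6, beside 6.45% of all probe sets: ATP2A2, the calcium pump SERCA2, averaged 1993 ± 287.3 with IL-13 and 2428 ± 159.2 in the control (-0.39 ± 0.11, limma adjusted p = 0.0469), with both other probe sets lower (-0.51 and -0.30). It was not called in 9 of 16 alternatives. At 12 h against 0 h 2 of 6 were called, beside 3.99% of all probe sets. They were ATP2A2 (-0.42 ± 0.11, limma adjusted p = 0.0440, not called in 7 of 16 alternatives) and DMPK (-0.50 ± 0.12, adjusted p = 0.0288, not called in 8 of 15). The other probe sets of ATP2A2 stood at -0.01 and 0.26 there. DMPK, the gene whose repeat expansion causes myotonic dystrophy type 1, averaged 64.16 ± 1.687 after 12 h of IL-13 and 96.47 ± 9.443 at 0 h. Its other probe sets stood at -0.06 and 0.03. At 24 h DMPK stood at 0.02 ± 0.12 against the control. At 4 h limma called 0 of 6 and none had an unadjusted p under 0.05.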

How the data were processed

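RNA of the A549 samples was measured on Affymetrix human genome arrays. The values are signal intensities per probe set, as deposited by the authors, on a linear scale with no value below 0. The software behind them: not given in the sources used here. Samples were grouped by their titles. Of 22283 probe sets, 68 array controls were left out; 19065 others carry a single symbol, 1043 several and 2107 none in the platform annotation, and 0 symbols changed through RefSeq identifiers. A pseudocount of 20 was added, log2 taken and the arrays quantile normalized. Each probe set was a feature of its own, and the 11107 whose average over the arrays exceeded 6.328 on the log2 scale (the 50th percentile) entered the tests: 6 of the 8 muscleblind probe sets.

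Contrasts came from limma 3.58.1 under R 4.3.3 (1 mean per group over 15 arrays, 10 residual degrees of freedom, empirical Bayes with a trend, two-sided), with Benjamini-Hochberg adjustment over all probe sets tested and a threshold of 0.05. The steps were tested on simulated data. The members and gene lists were chosen with earlier results of these data known. Genes were named by rule: all muscleblind probe sets, the 5 genes nearest to MBNL2, up to 6 called members of each list by smallest p, and CELF1, CELF2, RBFOX2, PTBP1, QKI, ESRP1 and INSR at 24 h. Precision is limited by 3 arrays per group. Alternatives tried were the values as deposited, median scaling, pseudocounts of 1 and 62, testing every probe set or only those above the 75th percentile, the brightest probe set per gene, no variance trend, the compared groups alone, a block for the replicate letter, and the omission of each array. The labels do not say whether the replicate letters pair samples. Same-letter deviations over all probe sets tested correlated at -0.208 to 0.102, which shows no strong shared shift but cannot exclude pairing.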

Additional observations from a re-analysis of the deposited data

How the results depend on the processing

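Over 15 alternatives MBNL2 on 203640_at differed from 0 h by 0.56 to 0.83 at 12 h, always higher, with limma adjusted p from 0.00739 to 0.0751, and by 0.24 to 0.43 at 4 h, and at 24 h from the control by 1.09 to 1.48. Leaving out 1 array gave 0.627 to 0.8222 at 12 h and 0 to 1 called muscleblind probe sets. Their count at 12 h was 2 as deposited and 0 with the 75th percentile filter, which removed 203640_at from testing. With the replicate letter as a block, the 12 h difference was 0.72 (limma adjusted p = 0.0109), and no muscleblind call changed.

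Called splicing regulators at 4 h numbered 1 as deposited, with median scaling, with the 75th percentile filter and with 1 probe set per gene, and 0 to 1 with an array left out. At 12 h they numbered 1 with the 75th percentile filter and 1 to 3 with an array left out. At 24 h they numbered 2 as deposited, 3 with no filter, 3 with no variance trend, 1 with the compared groups alone and 0 to 3 with an array left out. Called muscleblind-spliced transcripts at 24 h numbered 0 as deposited, with median scaling, with no variance trend and with the compared groups alone, and 0 to 2 with an array left out.

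Differences that were not called changed sign in places, and the cause was not tested. With median scaling MBNL1 201152_s_at stood at -0.048 at 12 h, CELF1 at 0.24, PTBP1 at 0.042 and QKI at 0.052 at 24 h, and CELF1 at 0.065 as deposited. With an array left out, differences from 0 h at 4 h ran from -0.058 to 0.198 on 201152_s_at, -0.24 to 0.00092 on 201151_s_at and -0.088 to 0.424 on MBNL2 205017_s_at. At 12 h against 0 h they ran from -0.0945 to 0.0951 on 201152_s_at and -0.217 to 0.027 on 201151_s_at. At 12 h against 4 h they ran from -0.205 to 0.087 on 201152_s_at, -0.206 to 0.079 on 201153_s_at and -0.028 to 0.087 on 201151_s_at. At 24 h against the control they ran from -0.178 to 0.144 on 201151_s_at, which was 0.070 with median scaling, as 201153_s_at was 0.143. For the 24 h control against 0 h they ran from -0.553 to 0.118 on MBNL2 205017_s_at. At 24 h they ran from -0.155 to 0.093 for CELF1 and -0.051 to 0.130 for RBFOX2. Dim probe sets limit the precision: MBNL3 and 215663_at fell below the filter. They were fitted only with no filter, where neither was called in the comparisons among 0 h, 4 h and 12 h.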
